A study of Homo sapiens with 6 samples.

Results

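The 10 genes described here encode the 2 non-muscle actins (ACTB and ACTG1), 3 α-tubulins (TUBA1A, TUBA1B and TUBA1C) and 5 β-tubulins (TUBB, TUBB2A, TUBB3, TUBB4B and TUBB6). They were chosen by name, with earlier results of these data known, as a set described as abundant, stable mRNAs that often serve as controls. By reads in EV libraries, however, TUBA1A, TUBB2A and TUBB3 ranked 1757th, 5994th and 8204th of 14443 protein-coding genes tested. Each symbol matched 1 of the 58243 Ensembl gene identifiers in the count files. All 10 passed the filter on low counts, which left 23884 genes for testing. The samples were 6 nascent RNA (4sU-seq) libraries made from A375, a human melanoma cell line. Of these, 3 libraries (EV B1, B2 and B3) came from cells stably transfected with an empty vector, and 3 (PRL3 B9, B10 and B11) from cells stably transfected with a plasmid for HA-tagged human PRL3, a phosphatase encoded by PTP4A3. Both kinds of cell were kept in hygromycin B and received 500 µM 4-thiouridine (4sU) for 20 min, so RNA made during the pulse could be pulled down through a biotin tag. Whether each line was 1 clone or a pool, and whether libraries came from separate cultures, is not given in the sources used here, so p-values measure the spread between these libraries, which may be technical.

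Actin monomers polymerise into the filaments of the cell cortex and of stress fibres, and α- and β-tubulin pair as the heterodimers from which microtubules are built. Free tubulin dimers lower the stability of tubulin mRNAs on ribosomes through the adaptor TTC5, and free actin monomers hold back the coactivator MRTF, which with SRF drives transcription of actin genes. Because a 4sU pulse captures young RNA, a stable mRNA that dominates total RNA is weighted less in this assay than its steady-state level would give.

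Between 36532207 and 57952035 reads per library fell on genes. PTP4A3 gave 4.61 ± 1.26 CPM (counts per 1000000 of the scaled library size, SD, n = 3) in EV libraries and 518 ± 80.6 CPM in PRL3 libraries, in the direction of the labels. Uniquely aligned reads that fit no annotated exon on its own strand are called reads off annotated exons here. Their share was 33.3% ± 6.75 in EV and 66.3% ± 3.18 in PRL3 libraries (SD, n = 3). It thus moved with the group, and its part in the results below was not tested. Of the melanocyte markers, SOX10 gave 484 ± 105 CPM in EV and 268 ± 38.0 CPM in PRL3 libraries. MITF gave 29.2 ± 3.18 CPM in EV and 37.6 ± 1.09 CPM in PRL3 libraries, without overlap. Of the 5 markers tested 2 were lower (SOX10 and S100B, log2 fold change -1.38) and 1 higher (PAX3, 0.67). MITF (0.36) and PMEL (-0.33) were not called. Among all genes tested 22.7% were lower and 20% higher. MLANA and TYR had at most 2 reads in any library. No marker of blood, epithelial or endothelial cells exceeded 24 reads.

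The 3 stretches printed here lie upstream of transcription starts. They show the promoter in which a CArG box was found (ACTG1), that of a β-tubulin that fell (TUBB4B) and 1 of the 2 listed for TUBB3. They come from the RefSeq promoter table (GRCh38.p14), which held 14 promoters of 9 of the 10 genes (all but ACTB), and are cut where any annotated exon begins. Capitals mark matches, on either strand, to the CArG box (the binding sequence of SRF), to CCAAT or to GGGCGG. The positions are chr17:81512852-81512929 on the minus strand for ACTG1, chr9:137241157-137241286 on the plus strand for TUBB4B and chr16:89923212-89923337 on the plus strand for TUBB3.
Upstream of ACTG1: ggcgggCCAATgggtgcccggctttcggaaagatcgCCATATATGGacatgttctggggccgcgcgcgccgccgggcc
Upstream of TUBB4B: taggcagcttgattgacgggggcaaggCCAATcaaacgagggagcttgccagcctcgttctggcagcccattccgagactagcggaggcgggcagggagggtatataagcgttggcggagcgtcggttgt
Upstream of TUBB3: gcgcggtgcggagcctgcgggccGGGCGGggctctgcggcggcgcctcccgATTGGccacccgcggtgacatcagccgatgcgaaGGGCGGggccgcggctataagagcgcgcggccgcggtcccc

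Over the 250 bases upstream of every RefSeq start, 1.16% of 35116 promoters held a CArG box, 10.7% TATAAA, 32% CCAAT and 42.6% GGGCGG. A CArG box can contain TATAAA, and the other motifs do not overlap each other within these stretches. Among the 14 promoters of the 9 genes with an entry, 1 held a CArG box (ACTG1), 1 TATAAA (TUBB2A), 9 CCAAT and 8 GGGCGG. The other TUBB3 promoter, like 1 of the 2 for TUBB6, held none of the 4 motifs. Promoters of 1 gene are not independent, and some overlap. These matches are a description of the letters, not of binding.

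PRL3 libraries held fewer reads of both actins, all 3 α-tubulins and 4 of the 5 β-tubulins relative to most genes. Relative to GAPDH 8 of the 10 were higher, but so were 84.3% of all genes tested. The reads counted for TUBB3 were more in PRL3 libraries, but they hold hardly any of its main mRNA, and the call was lost without PRL3 B10 and with all uniquely aligned reads as the library size. With TMM scaling, 9 of the 10 genes passed an adjusted p of 0.05 as lower (quasi-likelihood test of edgeR, Benjamini-Hochberg over all genes tested) and 1 as higher. Over all genes tested 22.7% were lower and 20% higher, and over protein-coding genes 31.6% and 15.2%. The median log2 fold change was -1.26 over the 10 genes, 0.11 over all genes tested and -0.15 over protein-coding genes. The background shifted with abundance: of the 1445 protein-coding genes in the top 10% by mean CPM, 59.2% were lower and 12% higher, with a median of -0.63. Of the 10 genes 7 lie in that top 10%, and all 7 were lower. The EV and PRL3 libraries did not overlap for any of the 10, lower in 9 and higher in 1, where 26.6% of all genes tested were lower without overlap and 29.7% higher. Counts of bulk RNA give shares of a library, so less RNA of all these genes per cell and more of other RNA cannot be told apart.

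**Figure D1:**
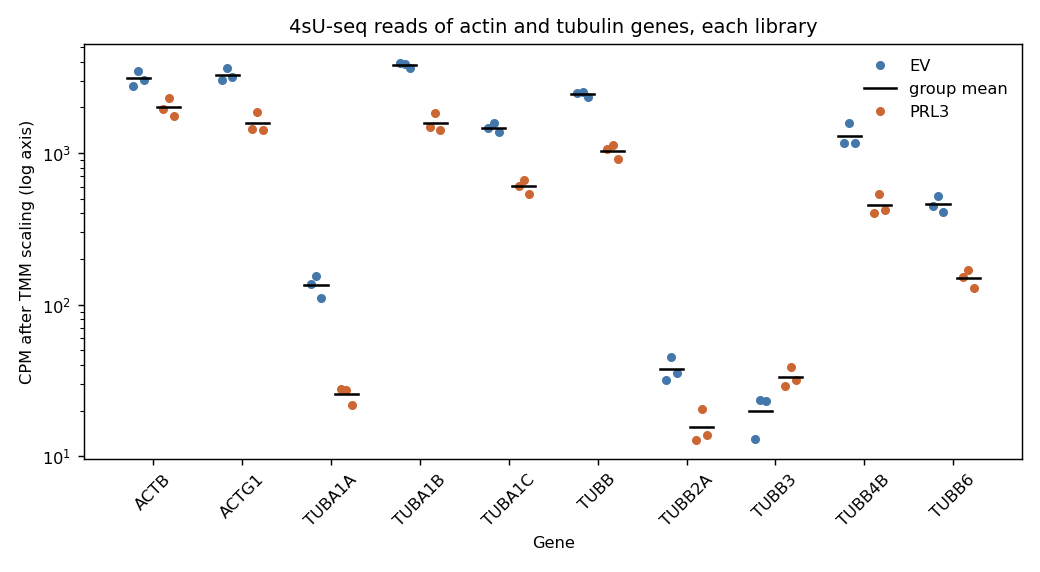
CPM after TMM scaling (log axis) of the 10 genes, with 1 point per library (blue EV, orange PRL3) and a bar at the mean of each group of 3. The PRL3 points lie below the EV points for 9 genes and above them for TUBB3, and the wider gap for TUBA1A (134 against 25.6 CPM) stands beside the narrow one for ACTB (3097 against 2010 CPM).

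ACTB (chromosome 7, 5526409 to 5563902, minus strand, GRCh38), which encodes β-actin, changed least among the 9 genes that fell. Its CPM were 2767, 3489 and 3034 in EV B1, B2 and B3, and 1961, 2305 and 1764 in PRL3 B9, B10 and B11. All PRL3 values lay below all EV values, and the gap between the closest libraries (EV B1 and PRL3 B10) was narrow. The log2 fold change was -0.62 (SE 0.17, adjusted p = 0.0089), or 1.54-fold lower. This call depended on a library and on the scaling. Without PRL3 B11 the log2 fold change was -0.53 (adjusted p = 0.0723), and with library size alone it was -0.13 (adjusted p = 0.433). With TMM, protein-coding genes in the top 10% by mean CPM had a median of -0.63, close to the -0.62 of ACTB.

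ACTG1 (chromosome 17, 81509413 to 81523847, minus strand) encodes γ-actin, the other non-muscle actin, whose protein differs from β-actin at few residues. Its CPM were 3009, 3633 and 3154 in the EV libraries and 1441, 1867 and 1420 in the PRL3 libraries. The groups were well apart, and PRL3 B10 was the highest of its group, as it was for ACTB. ACTG1 was 2.07-fold lower (log2 fold change -1.05, SE 0.17, adjusted p = 0.000298).

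The α-tubulins lie side by side on chromosome 12 (TUBA1B 49127782 to 49131397 and TUBA1A 49184686 to 49189080 on the minus strand, TUBA1C 49188736 to 49274600 on the plus strand). TUBA1B, the most read of the 3, gave 3922, 3875 and 3640 CPM in EV and 1480, 1827 and 1424 CPM in PRL3 libraries. TUBA1C, whose protein is nearly the same, gave 1455, 1563 and 1379 CPM in EV and 602, 666 and 538 CPM in PRL3 libraries. Both were lower by nearly the same factor, 2.42-fold for TUBA1B (log2 fold change -1.27, SE 0.16, adjusted p = 5.0e-05) and 2.43-fold for TUBA1C (-1.28, SE 0.15, adjusted p = 3.5e-05).

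TUBA1A, the α-tubulin best known from developing neurons, fell most of the 10. It gave 137, 155 and 111 CPM in EV and 27.7, 27.3 and 21.8 CPM in PRL3 libraries, so that the lowest EV library was still far above the highest PRL3 library. TUBA1A was 5.25-fold lower (log2 fold change -2.39, SE 0.18, adjusted p = 4.9e-06). The α-tubulin transcripts are alike in sequence: windows of 50 bases from the canonical transcript also occur in a transcript of another gene for 37.9% of positions in TUBA1A, 62.7% in TUBA1B and 21.3% in TUBA1C, and windows of 150 bases for 6.96%, 19.1% and 6.62%. Reads that aligned to several places were not counted on any gene, so these levels are understated by an unknown amount. Counting used strand, so the overlap of 345 exon bases between TUBA1A and TUBA1C, on opposite strands, does not mix their reads if the strand marking was complete.

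TUBB (chromosome 6, 30717435 to 30725538, plus strand), the β-tubulin present in most dividing cells, gave 2468, 2517 and 2337 CPM in EV and 1055, 1123 and 906 CPM in PRL3 libraries. TUBB4B (chromosome 9, 137241287 to 137243707, plus strand), a widely expressed β-tubulin that is also used in cilia, gave 1169, 1565 and 1163 CPM in EV and 402, 536 and 419 CPM in PRL3 libraries. TUBB6 (chromosome 18, 12307669 to 12344320, plus strand) encodes a more divergent β-tubulin. It gave 447, 520 and 406 CPM in EV and 152, 170 and 129 CPM in PRL3 libraries. For each of the 3 the groups were far apart compared with the spread within them. TUBB was 2.37-fold lower (log2 fold change -1.25, SE 0.16, adjusted p = 4.4e-05), TUBB4B 2.87-fold lower (-1.52, SE 0.18, adjusted p = 3.1e-05) and TUBB6 3.04-fold lower (-1.60, SE 0.16, adjusted p = 1.5e-05).

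TUBB2A (chromosome 6, 3153497 to 3157544, minus strand), one of a pair of close β-tubulin paralogs, was read at a much lower level. It gave 31.8, 45.4 and 35.5 CPM in EV and 12.8, 20.5 and 13.9 CPM in PRL3 libraries, and was 2.39-fold lower (log2 fold change -1.25, SE 0.21, adjusted p = 0.000391). Its canonical transcript shares 48.7% of its 150-base windows and 64.6% of its 50-base windows with other genes, above all TUBB2B, so its level is uncertain. TUBB2B itself, which was not among the 10, gave 21.0 ± 2.28 CPM in EV and 2.60 ± 0.46 CPM in PRL3 libraries (SD, n = 3, log2 fold change -3.01, SE 0.22, adjusted p = 4.9e-06).

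TUBB3 (chromosome 16, 89921392 to 89938761, plus strand), the β-tubulin used as a marker of neurons and also found in melanocytes and melanoma, was the only one of the 10 that rose. It gave 13.1, 23.4 and 23.0 CPM in EV and 29.3, 38.8 and 31.7 CPM in PRL3 libraries, with EV B1 well below the other 2 EV libraries. TUBB3 was 1.67-fold higher (log2 fold change 0.74, SE 0.22, adjusted p = 0.0152). The call was lost without PRL3 B10 (log2 fold change 0.62, adjusted p = 0.0768) and when all uniquely aligned reads were taken as the library size (0.28, adjusted p = 0.349). What these reads cover is unusual. Exons of a second annotated gene on the same strand, ENSG00000198211, overlap 92.8% of the canonical TUBB3 transcript, and reads that fit both genes were set aside as ambiguous by the counter. ENSG00000198211 had 0 reads in all 6 libraries, and 77% of the annotated TUBB3 exon bases lie outside the canonical transcript. By the annotation release used for this check, which is later than the authors', the TUBB3 count can hold only reads on exon bases outside that overlap, and so hardly any of the main mRNA. Between 505 and 2454 reads per library stood behind it. The rise of TUBB3 went along with the higher share of reads off annotated exons in PRL3 libraries, and the part of that share in it was not tested.

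Levels between genes were compared as CPM per kilobase of annotated exon. In EV libraries TUBA1B was highest (1067 ± 42.2 CPM per kb, SD, n = 3), followed by ACTG1 (806 ± 80.7), ACTB (703 ± 82.9), TUBB4B (638 ± 113) and TUBB (600 ± 22.8), and each neighbour from ACTG1 to TUBB overlapped the next. TUBA1C (329 ± 20.8), TUBB6 (116 ± 14.6), TUBA1A (35.2 ± 5.75), TUBB2A (12.9 ± 2.41) and TUBB3 (2.67 ± 0.79) followed with no overlap between neighbours. In PRL3 libraries ACTB (456 ± 62.2), TUBA1B (441 ± 61.0) and ACTG1 (389 ± 62.3) overlapped at the top. TUBB (252 ± 27.3) and TUBB4B (222 ± 35.8) overlapped next, then came TUBA1C (135 ± 14.3) and TUBB6 (38.2 ± 5.22), and TUBA1A (6.70 ± 0.86), TUBB2A (5.41 ± 1.43) and TUBB3 (4.48 ± 0.67) overlapped at the bottom. The range from the most to the least read gene thus narrowed at both ends with TMM scaling. Its lower end is TUBB3, whose count by the annotation holds hardly any of its main mRNA. These values depend on the annotated exon length, of which 23.3% (TUBB4B) to 77% (TUBB3) lies outside the canonical transcript. Among 14443 protein-coding genes tested, ranked by reads alone, ACTB stood 18th in EV and 6th in PRL3 libraries although its own level fell, and TUBA1B stood 9th and 11th.

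Ratios of reads between 2 genes of the same library do not depend on any scaling. The ratio of ACTB to ACTG1 reads was 0.920, 0.960 and 0.962 in EV libraries and 1.36, 1.23 and 1.24 in PRL3 libraries. ACTG1 was the more read actin in each EV library and ACTB in each PRL3 library. The mean log2 ratio was 0.43 higher in PRL3 libraries (two-sided exact permutation test p = 0.1, the smallest that 3 against 3 libraries allow, and 0.4 after adjustment over the 4 ratios tested). When ACTB itself set the scale, ACTG1 was lower by edgeR's quasi-likelihood test (log2 fold change -0.43, SE 0.14, adjusted p = 0.0219).

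The 3 tubulin pairs tested moved less than the actin pair. The ratio of TUBA1B to TUBA1C was 2.61 ± 0.11 in EV and 2.62 ± 0.14 in PRL3 libraries (SD, n = 3, exact permutation p = 0.9), and that of TUBA1B to TUBB was 1.56 ± 0.025 and 1.53 ± 0.12 (exact permutation p = 0.9). The ratio of TUBB to TUBB4B was 1.91 ± 0.27 and 2.29 ± 0.29 (exact permutation p = 0.2, adjusted 0.4), and here the groups overlapped as well. A p at this size of sample does not show that the ratios were equal. Of the 45 pairs of the 10 genes, 33 had ratios that did not overlap between EV and PRL3 libraries. Several tubulin pairs with TUBA1A or TUBB3 moved further than the actin pair, as for TUBA1A to TUBA1B (log2 ratio -1.11, PRL3 minus EV), TUBA1A to TUBB (-1.13) and TUBB to TUBB3 (-2.04). Leaving out TUBB3 and TUBA1A, the 2 genes at the extremes, 16 of 28 pairs did not overlap. These pairs share genes and are not independent. No share over pairs of other genes was computed, so the counts cannot be called high or low.

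**Figure D2:**
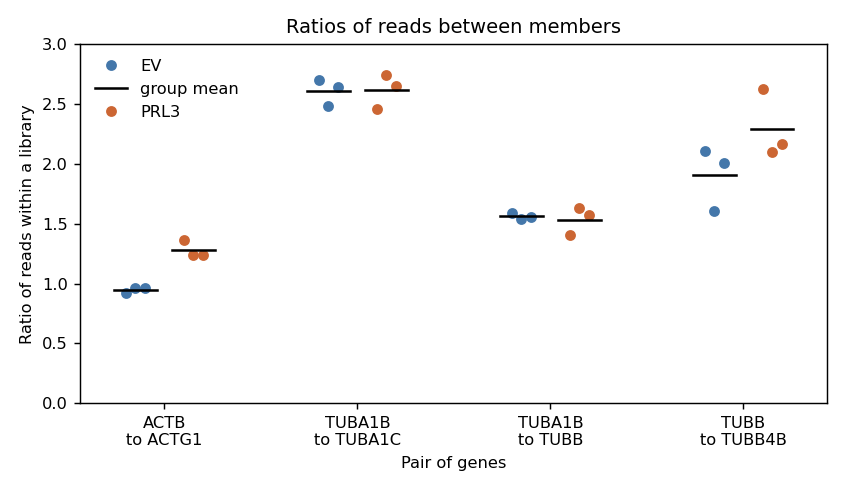
Ratio of reads between pairs of genes within a library, with 1 point per library (blue EV, orange PRL3) and a bar at the group mean. ACTB to ACTG1 lies below 1 in the 3 EV libraries and above 1 in the 3 PRL3 libraries, while the points of the 3 tubulin pairs overlap.

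As a share of all reads of the 10 genes, the actins rose from 39.6% ± 1.90 in EV to 48.0% ± 0.59 in PRL3 libraries (SD, n = 3), since they fell less than the tubulins. The α-tubulins went from 33.8% ± 1.81 to 29.5% ± 0.21 and the β-tubulins from 26.5% ± 0.51 to 22.5% ± 0.53, with no overlap between groups for any of the 3 families. These shares are parts of the same total in each library, so the 3 families are not independent. Nearly all of the gain of the actins was ACTB. Its share was 17.9%, 20.1% and 19.9% in EV and 27.4%, 26.9% and 26.5% in PRL3 libraries, whereas ACTG1 held 20.4% ± 0.74 and 21.1% ± 0.85 with overlap. Within the β-tubulins, TUBB3 held 0.466% ± 0.14 of the reads in EV and 1.98% ± 0.18 in PRL3 libraries, and TUBB6 10.7% ± 0.45 and 8.95% ± 0.30. TUBB made up 57.5% ± 3.18 and 61.3% ± 2.33 of β-tubulin reads, with overlap.

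**Figure D3:**
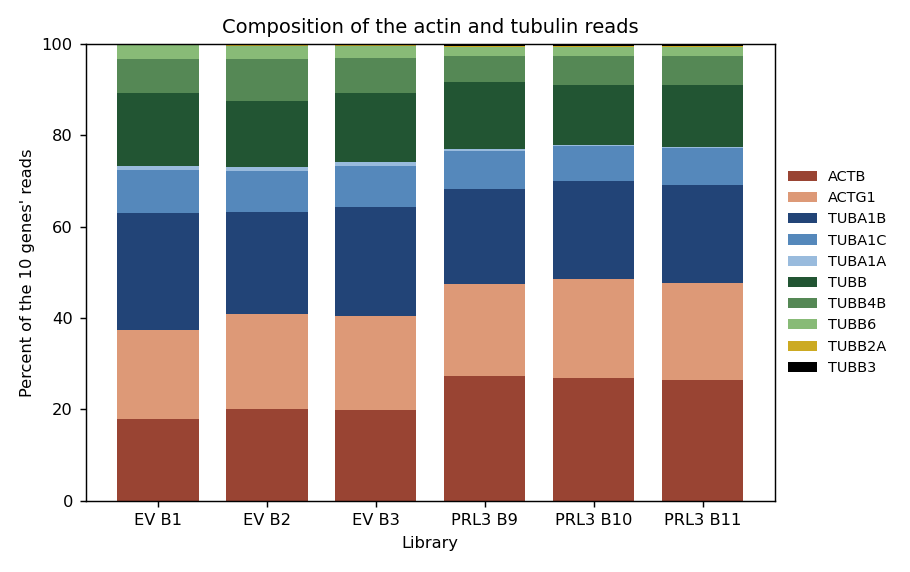
Stacked bars of the percent of the 10 genes' reads that each gene took in each library. The 2 actin segments at the base reach 37.5% to 41.0% in the EV libraries and 47.5% to 48.6% in the PRL3 libraries, mainly through a taller ACTB segment.

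The 10 genes together took 1.35% ± 0.078 of the reads on genes in EV and 0.883% ± 0.085 in PRL3 libraries, and 0.836% ± 0.098 and 0.280% ± 0.047 of all uniquely aligned reads (SD, n = 3, no overlap in either). ACTB alone took 0.227%, 0.284% and 0.271% of the reads on genes in EV libraries and 0.246%, 0.258% and 0.209% in PRL3 libraries. These values overlapped (exact permutation p = 0.4). Of all uniquely aligned reads, however, ACTB took 0.161% ± 0.023 and 0.0753% ± 0.013, without overlap. The denominator therefore decides whether ACTB looks level or lower.

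Every scaling moved the 10 genes and the median of all genes by nearly the same amount. This holds by construction for any gene, since a scaling changes only the library sizes. Relative to that median, ACTB lay at -0.73 on the log2 scale with TMM, -0.73 with library size alone and -0.74 with all uniquely aligned reads, and TUBA1B at -1.38, -1.38 and -1.39. TUBB3 lay at 0.63, 0.62 and 0.64. What changed was the median of all genes, which lay at 0.11 under TMM. It rose to 0.60 if only library size was used and to 0.29 if the upper quartile set the scale, and dropped to -0.36 if all uniquely aligned reads did. With library size alone 8 of the 10 genes were lower and 1 higher, against 12.9% and 39.8% of all genes. Upper-quartile scaling gave 9 and 1, against 18.7% and 26.6%. All uniquely aligned reads gave 9 and 0, against 35.5% and 8.17%.

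These genes are often used as the reference themselves, so the counts were also scaled to them. With ACTB as the reference, 9.54% of all genes tested were lower in PRL3 libraries and 41.3% higher, and the median log2 fold change of all genes became 0.73. The other 9 members stayed called, with 8 lower and TUBB3 higher (log2 fold change 1.38, SE 0.22, adjusted p = 0.00064). With the sum of the 10 genes as the reference, 5.01% of all genes were lower and 62.6% higher, with a median of 1.22. Then TUBA1A, TUBB4B and TUBB6 were lower, ACTB and TUBB3 higher, and the other 5 were not called. The genes are part of this reference, so they cannot all lie on the same side of it. With GAPDH, a reference added after the data had been seen, 0.871% of all genes were lower and 84.3% higher, with a median of 2.06. On that scale TUBA1A was lower, 8 of the 10 genes were higher (ACTB by a log2 fold change of 1.32, SE 0.15) and TUBB6 was not called (0.34, SE 0.16, adjusted p = 0.0592). The sign of a fold change of ACTB was thus negative against most genes and positive against GAPDH. With TMM its log2 fold change of -0.62 lay close to the median of -0.63 over the protein-coding genes in the top 10% by mean CPM.

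**Figure D4:**
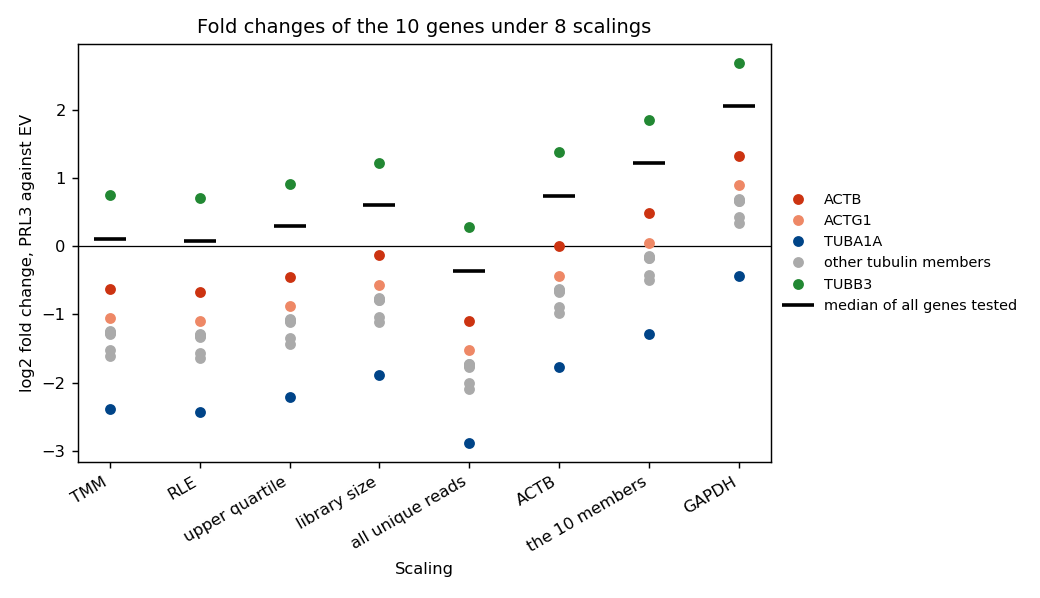
Log2 fold changes of the 10 genes (points) and the median of all genes tested (black bars) under 5 scalings to many genes or reads and 3 to chosen reference genes. The order of the points and their distance from the bar stay nearly fixed because a scaling shifts every gene nearly alike. TUBB3 lies above the bar and the other 9 below it. The points shift together relative to 0, with TUBA1A below 0 and TUBB3 above 0 under every scaling shown.

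Of 12 other genes often used as references, most had a lower log2 fold change than ACTB. Among them 10 were lower, 1 higher and 1 not called, with a median log2 fold change of -1.31, beside the 22.7% lower over all genes and 59.2% among abundant protein-coding genes. The ribosomal proteins RPL13A (-2.35, SE 0.19) and RPLP0 (-1.83, SE 0.20), the glycolytic enzymes GAPDH (-1.94, SE 0.18) and PGK1 (-1.76, SE 0.17) and the prolyl isomerase PPIA (-1.79, SE 0.18) fell most. GAPDH gave 11223 ± 851 CPM in EV and 2926 ± 462 CPM in PRL3 libraries. HPRT1 (-1.41, SE 0.20), B2M (-1.21, SE 0.18), YWHAZ (-0.88, SE 0.19), TFRC (-0.81, SE 0.20) and SDHA (-0.39, SE 0.14) were also lower. GUSB, a lysosomal enzyme, had a log2 fold change of 0.02 (SE 0.14, adjusted p = 0.909), and TBP, the TATA-binding protein, was higher (0.56, SE 0.15, adjusted p = 0.0095). ACTB was thus among the references that fell by less, with SDHA below it in size, and the difference between ACTB and each of them was not tested. With library size alone 7 of the 12 were lower and 2 higher, GUSB (0.51, SE 0.14, adjusted p = 0.0083) and TBP, while YWHAZ and TFRC were not called and SDHA turned sign without a call (0.11, SE 0.13). Over all genes tested, library size alone called 12.9% lower and 39.8% higher. With all uniquely aligned reads 11 of the 12 were lower and none higher, against 35.5% and 8.17% of all genes tested.

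Other tubulins and genes that act on tubulin were counted beside 22.7% lower and 20% higher over all genes tested, and 59.2% and 12% among abundant protein-coding genes. Of 10 other tubulins tested, 4 were lower, 1 higher and 5 not called (median -0.96). TUBB4A (-2.48, SE 0.40) and TUBB1 (-1.99, SE 0.58), both with few reads, stood beside TUBB2B in falling. TUBG1, γ-tubulin, fell on 2927 to 9715 reads per library (-1.45, SE 0.16), and TUBD1, δ-tubulin, rose (0.60, SE 0.21, adjusted p = 0.0314). TUBG1 and TUBD1 were named after their values were seen. Of 7 cofactors of tubulin folding and of its mRNA control, 5 were lower and none higher (median -0.88). ARL2, a GTPase in the assembly of the dimer, fell by 2.31 (SE 0.19), and TBCB (-1.56, SE 0.17) and TBCA (-1.28, SE 0.21), chaperones of α- and β-tubulin, fell as well. TTC5, the adaptor for tubulin mRNA decay, gave 28.5 ± 3.97 CPM in EV and 29.2 ± 1.70 CPM in PRL3 libraries (SD, n = 3, log2 fold change 0.03, SE 0.16, adjusted p = 0.897). Of the 6 prefoldin subunits, which hand new actin and tubulin to the chaperonin, 5 were lower and none higher (median -1.24), led by PFDN5 (-1.79, SE 0.18), PFDN6 (-1.55, SE 0.17) and PFDN2 (-1.27, SE 0.17). Of 10 genes whose products bind microtubules, 5 were lower and none higher (median -0.52), with CKAP5 (-1.04, SE 0.20), MAPRE1 (-0.90, SE 0.16) and STMN1 (-0.78, SE 0.18) the furthest.

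On the side of actin, 10 of 13 genes for monomer binding and filament turnover were lower and none higher (median -1.12), beside the same 22.7% lower over all genes and 59.2% among abundant ones. TMSB10, which sequesters monomers, gave 1167 ± 220 CPM in EV and 296 ± 41.1 CPM in PRL3 libraries (log2 fold change -1.98, SE 0.18), and profilin PFN1 (-1.59, SE 0.17) and the severing protein GSN (-1.58, SE 0.16) also fell. Of the 9 subunits of the Arp2/3 complex, which nucleates branched filaments, 6 were lower and 1 higher (median -0.51). ARPC3 (-2.04, SE 0.21) and ARPC2 (-1.02, SE 0.16) fell, whereas ARPC1B rose (1.02, SE 0.19, adjusted p = 0.00072). The genes of the SRF and MRTF pathway split evenly, with 4 lower, 4 higher and 5 not called of 13 tested (median 0.01). FLNA, a filamin that crosslinks actin (-1.31, SE 0.18), and TPM2, a tropomyosin (-1.24, SE 0.15), fell, and CCN1, a secreted matrix protein (1.15, SE 0.20), rose. Of the 3 other actins tested, the aortic ACTA2 and the skeletal ACTA1 were not called, while the cardiac ACTC1 was higher on very few reads, with 0 in each EV library and 13, 16 and 9 in the PRL3 libraries. No list was tested against the other genes. With library size alone, which called 12.9% of all genes lower and 39.8% higher, fewer genes were lower. They numbered 8 of 13 in actin turnover, 4 of 6 in prefoldin, 3 of 7 among the tubulin cofactors and 3 of 10 among the other tubulins. Among the Arp2/3 subunits, the microtubule binders and the SRF and MRTF genes they numbered 2 each. On that scale 7 SRF and MRTF genes, 3 other tubulins and 2 genes of actin turnover were higher. Tubulin cofactors, Arp2/3 subunits and microtubule binders had 1 higher gene each, and prefoldin had none.

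**Figure D5:**
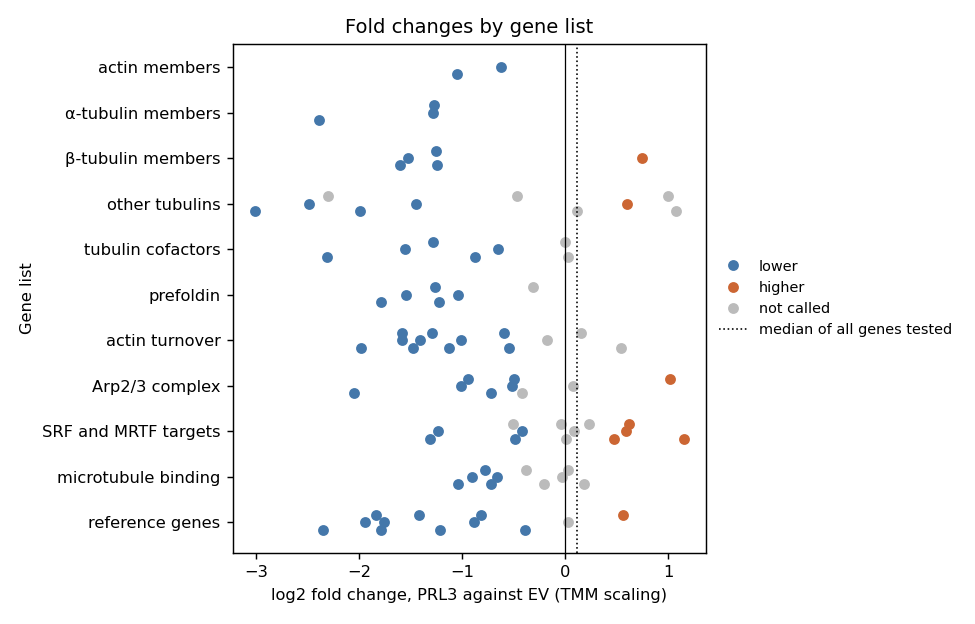
Log2 fold change with TMM scaling of each gene tested in 11 lists, blue where lower, orange where higher and grey where not called at an adjusted p of 0.05, with a dotted line at the median of all genes (0.11). Actin turnover, prefoldin and reference genes lie mostly between -2.4 and 0 like the 9 members that fell, whereas the SRF and MRTF genes lie on both sides of 0.

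The protein-coding genes whose log2 CPM, centred over the 6 libraries, came closest to the summed actins were ENTPD6 (root mean square difference 0.0208), CAPN5 (0.0263) and RBM10 (0.0320). Closest to the summed tubulins were TRAP1 (0.0133), CBR1 (0.0353) and MARS1 (0.0490). Each was picked from 7127 candidates over only 6 libraries, which are shared by all points, so close matches arise easily. Their log2 fold changes were -0.82, -0.84 and -0.88 for the first 3 and -1.32, -1.30 and -1.32 for the others.

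Pseudogenes with copies of these transcripts took few reads. No single one of 32 actin, 15 α-tubulin and 35 β-tubulin pseudogenes reached 1% of the reads of its parent family in any library. Summed, actin pseudogenes had 0.334% ± 0.061 as many reads as the actins in EV and 1.18% ± 0.36 in PRL3 libraries, and α-tubulin pseudogenes 0.545% ± 0.13 and 1.03% ± 0.067, both without overlap. Those of β-tubulin had 0.499% ± 0.17 and 0.484% ± 0.031, with overlap. The share of reads off annotated exons rose along with the actin and α-tubulin pseudogene reads, and its part in them was not tested.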

How the data were processed

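4sU-seq was done on 3 EV and 3 PRL3 libraries of A375 cells (rRNA-depleted, strand-specific, paired reads of 150 bases). Per the labels and the study's methods, the authors aligned reads to GRCh38 with STAR 2.5.1b and deposited raw counts per Ensembl 91 gene from HTSeq 0.6.1 with its reverse-strand setting, without normalization. Symbols and loci came from GENCODE 44, which matched 57532 of 58243 identifiers. Counts were fitted in R 4.3.3 with edgeR 4.0.16 (TMM, filterByExpr, quasi-likelihood test of group alone, Benjamini-Hochberg adjustment over 23884 genes, threshold 0.05). CPM are counts per 1000000 of the TMM-scaled library size. SEs came from the quasi-likelihood statistic. Alternatives were other scalings, DESeq2 1.42.0, limma-voom (limma 3.58.1), other filters, protein-coding genes only and each library left out. Scaling to GAPDH and the background of abundant genes were added after seeing the data. The steps were tested on simulated data, where 79 of 188 genes changed 2-fold were recovered (42.02%) and 7 of 22587 unchanged genes were called. A gene that was not called may therefore still have changed. No 2 libraries agreed within sampling noise (mean chi-square per gene at least 24.7). Members and lists were chosen with earlier results of these data known. Named genes are the members, PTP4A3, 12 reference genes, TTC5 and melanocyte markers. Also named are the 3 called genes with the largest change per list and the 3 genes closest to the summed actins and tubulins. TBCE was not analysed here. Of the reference genes first listed, 2 are not reported here and were left out of the counts. Counting error alone is small for most members, since each has at least 505 reads per library.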

Additional observations from a re-analysis of the deposited data

Results flagged for a closer look

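Data outside the counts per gene carried a signal that differed between the groups. The share of uniquely aligned reads off the annotated exons was 66.271% in PRL3 libraries and 33.322% in EV libraries (means, n = 3 each), without overlap. ACTB overlapped between groups as a share of reads on genes and did not as a share of all uniquely aligned reads, a total that includes the reads off exons. The part of these reads in other results was not tested.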

How the results depend on the processing

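Of the 10 genes, 8 (all but ACTB and TUBB3) kept their direction and their call under all 15 alternatives to the fit. ACTB kept its direction in 15 and its call in 13, and so did TUBB3, with the exceptions given above. The median log2 fold change of the 10 genes (-1.26) was -0.78 if only library size was used, -1.09 if the upper quartile set the scale, -1.74 if all uniquely aligned reads did and -1.09 over protein-coding genes only, and -1.37 to -1.18 with a library left out. Of the 10 genes, 8 to 9 were lower and 0 to 1 higher with a library left out. Over all genes those fits called 4306 to 5869 lower and 3200 to 5940 higher, of 24743 to 25070 tested. With all uniquely aligned reads 9 of the 10 were lower and none higher, against 35.5% and 8.17% of all genes. Scaled to GAPDH, 1 was lower and 8 were higher, against 0.871% and 84.3% of all genes. Leaving out a library moved the log2 ratio of TUBA1B to TUBA1C (0.0058, PRL3 minus EV) over -0.0295 to 0.0494 and that of TUBA1B to TUBB (-0.029) over -0.0723 to 0.0345, so neither has a direction. No paired analysis was possible because EV and PRL3 samples carry different numbers. With 3 libraries a group, the exact test cannot pass 0.05, and changes near that of TUBB3 rest on single libraries. The cause of each change of call was not tested.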
